A study of Rattus norvegicus with 24 samples.

Results

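The challenge measured here was a second, low dose of methamphetamine (METH) given to rats that had already received a single high dose a month earlier. MM rats received METH at 10 mg/kg first and METH at 2.5 mg/kg a month later, and MS rats received the same METH dose first and saline a month later. The labels put 7 arrays in each of these groups, 14 of the 24 arrays of the series. The others came from rats given saline first, with 6 arrays after a METH challenge (SM) and 4 after a saline challenge (SS). All animals were male Sprague-Dawley rats and were euthanized 2 h after the second injection. Both MM and MS thus carry the earlier METH exposure, and their contrast sets a METH challenge against a saline challenge. The labels give the tissue as nucleus accumbens (NAc) and the source as striatal tissue. They do not tie an array to a single rat, so the p-values measure the spread between these samples, and replicate numbers were given in accession order and only name arrays.

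METH releases dopamine from its nerve terminals, and the NAc is a main target of that release. There, dopamine acting on D1-type receptors of medium spiny neurons raises cyclic AMP and activates kinases that phosphorylate CREB and other transcription factors. Within minutes to hours this switches on immediate early genes, which encode transcription factors such as FOS and the NR4A and EGR families, and then later effectors and feedback inhibitors. METH is also known to raise circulating glucocorticoids and body temperature, which act on gene groups of their own.

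Bright medium spiny neuron markers were present in both groups. Ppp1r1b, which encodes DARPP-32, had a median of 12.74 in MM arrays and 12.86 in MS arrays on the normalized log2 scale, and Penk, the enkephalin precursor, 12.84 in MM arrays and 12.93 in MS arrays. None of the 24 marker genes of these neurons passed the test, where 0.787% of all 8894 genes rose and 0.416% fell. At those shares, the lack of a call among 24 genes says little about their level. Of the 24, 9 had a positive and 15 a negative difference (MM minus MS), with a median of -0.08 on the log2 scale. The share of probes detected was 51.3% to 53.4% in MM arrays and 51.5% to 53.8% in MS arrays, and Spearman's correlation between any 2 of the 14 arrays was 0.957 to 0.976.

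Several arrays stood apart from the rest of their group. All MM arrays held transcripts of the choroid plexus, the secretory epithelium of the brain ventricles, and MM replicates 2, 5, 4 and 7, in that order, held the most. The summed level of 14 choroid plexus and ependymal markers was 6492.5 to 24796 in MM arrays and 4972.9 to 5987.6 in MS arrays. MS replicate 2 had the highest level among MS arrays of Fos (6.98), Nr4a3 (7.80), Arc (8.31), Junb (9.51), Egr4 (7.84) and Dusp1 (9.71). MS replicate 1 received an array weight of 0.32, where a typical array has a weight near 1. SM replicate 3 received 0.25 and SS replicate 1 received 0.34. Some gene values are therefore also given without MS replicate 2, or without MM replicates 2, 4, 5 and 7. With the 3 arrays of low weight left out together, counts of probes are given but no gene values. These choices were made after seeing the data.

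Which genes differed 2 h after the second METH dose? Of 12956 probes tested, 85 (0.656%) were higher and 61 (0.471%) lower in MM than in MS at an adjusted p under 0.05 (limma, Benjamini-Hochberg adjustment over all tested probes). Probes carrying 1 gene symbol represented 70 genes among the higher ones and 39 among the lower ones. The changes were mostly small. The median log2 difference (MM minus MS) of the called probes was 0.51 for the higher and -0.37 for the lower ones, and 9 probes differed by more than 1 on the log2 scale. Over all tested probes, every MM array lay above every MS array for 79 (0.61%) and below for 61 (0.471%). Among the called probes, MM and MS arrays did not overlap for 48 of the higher and 27 of the lower ones. By a second threshold, a fold and p of the size the study applied to its arrays (more than 1.8-fold, p below 0.01, here taken before adjustment), 16 probes (0.123%) were higher and 5 (0.0386%) lower. Of those 16, 15 were also called by adjusted p. The other was Scgb1c1, whose MM minus MS difference was 0.96 ± 0.25 (log2 difference ± SE, n = 7 arrays a group) with an adjusted p of 0.0595. Standard errors here and below came from the limma fit, whose estimate of the spread was shared over all 24 arrays. None of the 5 lower ones was called by adjusted p. The one with a gene symbol was Rnf113a2 (-1.09 ± 0.31, adjusted p = 0.0831). All 146 called probes had the same sign on slide 1 alone and on slide 2 alone. Both slides had entered the calls, so this agreement is no independent check. On slide 1, with 3 MM and 4 MS arrays, none was called, though 811 probes had an unadjusted p under 0.05. On slide 2, with 4 MM and 3 MS arrays, 20 were called higher and 13 lower.

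**Figure D1:**
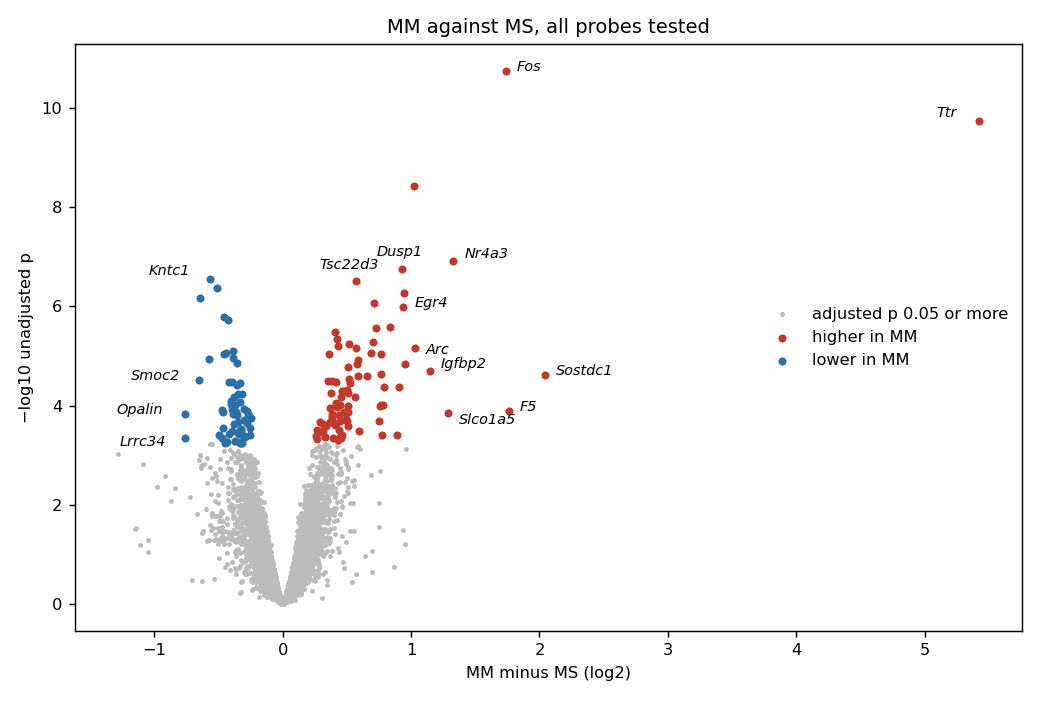
Each point is a probe, with the MM minus MS log2 difference on the x axis and −log10 of the unadjusted limma p on the y axis. The 85 probes higher in MM are red and the 61 lower in MM are blue, with Fos and Ttr far from the rest and no decrease beyond 1 on the log2 scale among the called probes.

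Immediate early transcription factors rose in MM, led by Fos, Nr4a3 and Egr4. Because the tissue was measured in bulk, a difference in RNA per cell and a difference in the number of cells that express a gene cannot be told apart. Fos, the AP-1 subunit that is the standard marker of recent neuronal activation, was at 7.57, 8.11 and 8.24 (lowest, median and highest array) in MM, against 5.79, 6.22 and 6.98 in MS. All MM arrays were thus above all MS arrays. The difference was 1.74 ± 0.15, or 3.34-fold (adjusted p = 2.31e-07, two-sided exact permutation p = 0.000583, the smallest that 7 against 7 arrays can give). It was 1.66 on slide 1 and 1.79 on slide 2, and 1.86 without MS replicate 2. In deposited intensities, before normalization, Fos lay between 160.7 and 311.6 in MM arrays and between 40.6 and 113.7 in MS arrays.

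Nr4a3, which encodes the orphan nuclear receptor NOR-1, stood at 7.81, 8.46 and 8.79 in MM arrays, against 6.69, 6.97 and 7.80 in MS arrays. The arrays did not overlap, although MS replicate 2 lay just under the lowest MM array, with the next MS array at 6.98. The difference was 1.33 ± 0.18 (2.51-fold, adjusted p = 0.000404), and 1.46 without MS replicate 2. Nr4a2, which encodes NURR1, was dimmer, at 5.51, 5.74 and 6.47 in MM and 4.97, 5.04 and 5.38 in MS, again without overlap (0.75 ± 0.17, adjusted p = 0.0269). Leaving out any of 6 single arrays (MM replicates 1, 5 and 7 and MS replicates 2, 3 and 4) took the adjusted p of Nr4a2 above 0.05, to 0.0767 at most.

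Egr4, a zinc finger factor of the early growth response family, was at 7.81, 8.16 and 8.75 in MM arrays, against 6.89, 7.21 and 7.84 in MS arrays (0.94 ± 0.14, 1.92-fold, adjusted p = 0.000764). Only MS replicate 2 reached into the MM range. Junb, a JUN family partner of FOS, was at 9.22, 9.39 and 9.75 in MM, against 8.33, 8.51 and 9.51 in MS (0.77 ± 0.14, adjusted p = 0.00411), and its groups overlapped through that same MS array. Other members did not pass. Egr1 differed by 0.43 ± 0.13 (adjusted p = 0.129), Egr2 by 0.51 ± 0.17 (adjusted p = 0.156) and Jun by 0.07 ± 0.10 (adjusted p = 0.842). Without MS replicate 2, which had the highest Egr1 of any MM or MS array (10.78), the differences were 0.56 for Egr1 and 0.66 for Egr2. Both then passed the threshold. Leaving out the MS array with the highest values of these genes raises the differences by itself, so this is no support for either gene. In all, 2 of the 4 tested AP-1 genes and 3 of the 5 tested NR4A and EGR genes rose and none fell, with median differences of 0.42 and 0.75, where 0.787% of all 8894 genes rose, 0.416% fell and the median was 0.005.

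Of 26 tested genes that act downstream of neuronal activity, 8 rose, none fell and 18 did not pass, and the median difference of the 26 was 0.29. Over all 8894 genes, 0.787% rose and 0.416% fell. Arc, whose product regulates AMPA receptor trafficking at synapses, was at 7.97, 8.21 and 8.66 in MM, against 6.68, 7.18 and 8.31 in MS. That was 2.05-fold (1.03 ± 0.18, adjusted p = 0.00398), with an overlap due to MS replicate 2 alone, without which the difference was 1.21. Nfil3, a bZIP repressor that also belongs to the clock machinery, was at 7.30, 8.08 and 8.26 in MM and 6.31, 7.04 and 7.38 in MS (0.93 ± 0.15, adjusted p = 0.0011). Its lowest MM array lay inside the MS range and the other 6 lay above it. Crem, which encodes CREM and the inducible cyclic AMP early repressor ICER, was measured by 2 probes that gave 0.73 ± 0.12 (adjusted p = 0.00221) and 0.59 ± 0.11 (adjusted p = 0.00495), both with no overlap.

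Sik1, a salt-inducible kinase that restrains CREB coactivators, reached 8.18, 8.60 and 8.69 in MM arrays, against 7.56, 7.93 and 8.39 in MS arrays (0.57 ± 0.10, adjusted p = 0.00398). Gadd45g, a growth arrest and DNA damage protein that has been tied to active DNA demethylation, was at 7.18, 7.34 and 7.58 in MM and 6.18, 6.84 and 6.96 in MS, with no overlap (0.65 ± 0.13, adjusted p = 0.00812). It was the only one of 12 tested DNA methylation genes to pass, where 0.787% of all 8894 genes rose, and that group's median difference was 0.001. Dnmt1, Dnmt3a and Dnmt3b, the DNA methyltransferases, differed by 0.02 ± 0.08, -0.50 ± 0.20 and -0.02 ± 0.09 (adjusted p of 0.952, 0.271 and 0.957). The remaining effectors that passed were named after their values were seen. Npas4, a neuron-specific activity-dependent factor, differed by 0.76 ± 0.17 (adjusted p = 0.0187) and was detected on all MM arrays but on only 2 of 7 MS arrays, so that its size depended on the background handling (0.40 to 1.82 over the alternatives). Sertad1, a cell cycle regulator, differed by 0.50 ± 0.12 (adjusted p = 0.0269) and Nptx2, a secreted pentraxin that clusters AMPA receptors, by 0.59 ± 0.14 (adjusted p = 0.0351). Leaving out 1 array ended the call of Npas4 for MM replicate 1 (adjusted p = 0.0529), of Sertad1 for 5 of the 14 arrays (at most 0.0649) and of Nptx2 for 10 of them (at most 0.0867).

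Feedback inhibitors of the MAP kinase and growth factor pathways gave 2 increases among 14 tested genes, with a median of 0.15. Over all 8894 genes, 0.787% rose and 0.416% fell. Dusp1, a phosphatase that switches off MAP kinases, was at 9.91, 10.04 and 10.27 in MM arrays, against 8.86, 9.02 and 9.71 in MS arrays. No MM array fell into the MS range, and the highest MS array was replicate 2. The difference was 0.93 ± 0.13 (1.90-fold, adjusted p = 0.000458). Errfi1, an inhibitor of EGF receptor signalling, differed by 0.42 ± 0.07 without overlap (adjusted p = 0.00324). From the cyclic AMP and dopamine receptor signalling genes, 2 of 26 rose and none fell (median 0.02), again beside 0.787% and 0.416% of all genes. They were Crem and Rasd1, a dexamethasone-induced RAS-like G protein (0.50 ± 0.11, adjusted p = 0.0211). The call of Rasd1 ended without MM replicate 1 (adjusted p = 0.0527) or 5 (adjusted p = 0.0538).

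**Figure D2:**
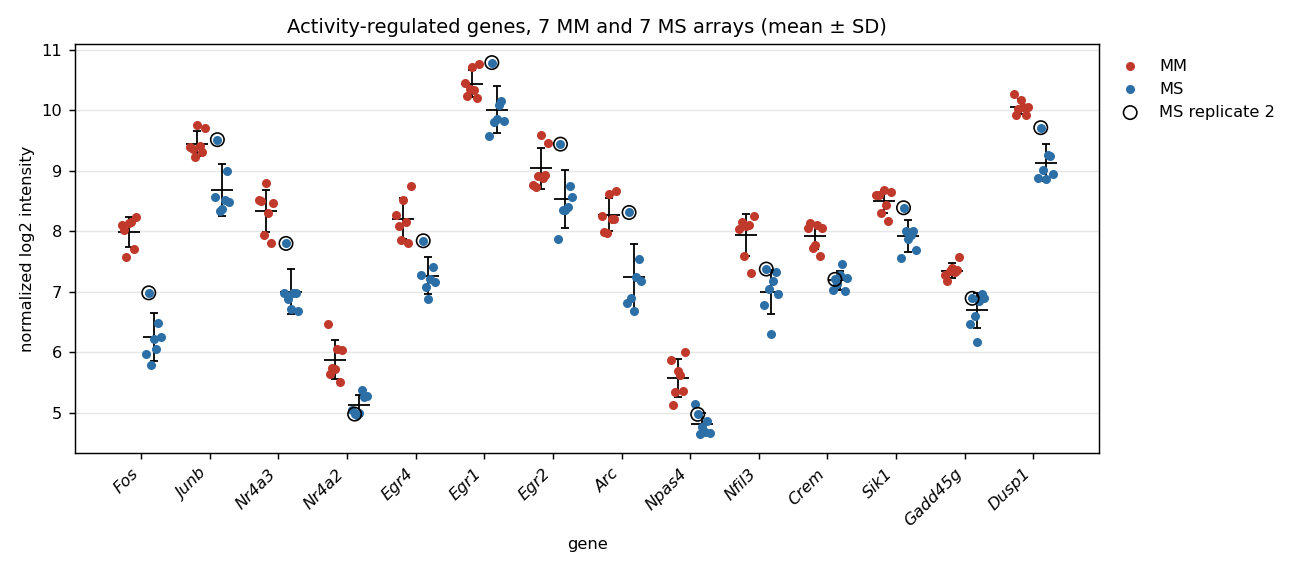
Normalized log2 values of activity-regulated genes, for each gene along the x axis, 1 point an array and lines at the group mean ± SD (n = 7), with MM left of MS. Fos, Nr4a3 and Dusp1 have all MM arrays above all MS arrays, and the ringed point is MS replicate 2, the highest MS array for Fos, Junb, Egr1 and Arc.

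CREB binds the cyclic AMP response element, whose full form is TGACGTCA and whose shorter form is TGACG, searched on both strands so that its reverse complement CGTCA counts. The full form holds a match of the shorter one on each strand. The promoters below are shown because Egr4, Dusp1 and Sik1 rose and hold such letters. They are RefSeq sequences of the GRCr8 build, 250 bases before to 50 after the gene start, 5′ to 3′ on the gene's strand, with the matches in capitals. Egr4 lies at chr4:119607768-119608067 on the minus strand, Dusp1 at chr10:17184603-17184902 on the plus strand and Sik1 at chr20:9958597-9958896 on the minus strand.
Egr4: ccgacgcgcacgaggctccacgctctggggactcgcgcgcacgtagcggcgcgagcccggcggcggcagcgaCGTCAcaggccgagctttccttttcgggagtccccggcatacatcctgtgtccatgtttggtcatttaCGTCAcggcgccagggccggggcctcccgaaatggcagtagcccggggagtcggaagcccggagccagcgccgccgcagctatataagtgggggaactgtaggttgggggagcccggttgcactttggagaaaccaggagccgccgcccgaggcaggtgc
Dusp1: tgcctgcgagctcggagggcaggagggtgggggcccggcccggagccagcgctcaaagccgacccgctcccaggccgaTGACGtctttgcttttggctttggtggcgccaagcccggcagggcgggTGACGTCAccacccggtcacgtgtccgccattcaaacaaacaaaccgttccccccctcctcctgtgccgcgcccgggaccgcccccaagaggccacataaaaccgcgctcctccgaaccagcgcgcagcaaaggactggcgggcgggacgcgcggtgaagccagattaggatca
Sik1: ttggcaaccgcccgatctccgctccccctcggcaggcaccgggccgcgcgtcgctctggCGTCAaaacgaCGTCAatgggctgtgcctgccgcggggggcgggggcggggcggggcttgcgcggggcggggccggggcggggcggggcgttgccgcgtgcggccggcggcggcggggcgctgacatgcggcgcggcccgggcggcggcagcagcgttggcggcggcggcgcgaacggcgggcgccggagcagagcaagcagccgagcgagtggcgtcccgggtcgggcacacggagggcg
Dusp1 holds 1 full element and a separate shorter one upstream, and Egr4 and Sik1 hold 2 shorter ones each. The full form was in 1.91% of 27457 promoters of this length, 3.15% of the 7394 tested genes' promoters and 1 (1.64%) of the 61 genes higher in MM that have one. The shorter form was in 22% of all promoters, 31.3% of the 7394 tested genes' promoters and 24 (39.3%) of those 61. A match describes the letters and is no evidence of binding.

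Glucocorticoid-responsive genes rose in part. Of 20 tested genes 5 rose and none fell, 19 had a positive difference, and the median was 0.25, where 0.787% of all 8894 genes rose, 4605 had a positive difference and the median was 0.005. Tsc22d3, which encodes the glucocorticoid-induced leucine zipper GILZ, was at 10.74, 10.82 and 10.97 in MM, against 10.14, 10.28 and 10.38 in MS. These narrow ranges did not overlap, and the difference was 0.57 ± 0.08 (1.48-fold, adjusted p = 0.000583). Sgk1, the serum and glucocorticoid-regulated kinase, was at 10.73, 11.26 and 11.49 in MM arrays, against 10.19, 10.42 and 10.58 in MS arrays, again without overlap (0.77 ± 0.15, adjusted p = 0.00795). Errfi1 and Klf9 belong to this group too, and Sult1a1, a sulfotransferase, passed with 0.39 ± 0.10 (adjusted p = 0.0427), a call that ended when any of 11 arrays was left out (adjusted p up to 0.105). Fkbp5, a chaperone that limits glucocorticoid receptor activity and a common readout of it, did not pass (0.29 ± 0.08, adjusted p = 0.0898).

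Kruppel-like zinc finger factors gave 3 increases in 11 tested genes and no decrease, with a median of 0.27, where 0.787% of all 8894 genes rose. Klf9 was at 11.74, 11.94 and 12.00 in MM, against 11.25, 11.57 and 11.73 in MS (0.38 ± 0.08, adjusted p = 0.00897). Klf10, also known as TGFB-inducible early gene, was at 6.13, 6.36 and 6.55 in MM arrays and at 5.45, 5.86 and 6.11 in MS arrays (0.56 ± 0.12, adjusted p = 0.0142). Klf6 differed by 0.43 ± 0.08 (adjusted p = 0.0039). MM and MS arrays did not overlap for any of these 3 factors. Among 14 clock genes only Nfil3 rose. Per1, a clock gene that is induced by both cyclic AMP and glucocorticoids, differed by 0.27 ± 0.10 (adjusted p = 0.213).

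Some cytosolic chaperones and their partners rose. Of 17 tested heat shock proteins 3 rose and none fell, with a median of 0.22, where 0.787% of all 8894 genes rose. Bag3, a co-chaperone of HSP70 in selective autophagy, was at 9.09, 9.24 and 9.53 in MM, against 7.99, 8.58 and 8.82 in MS, without overlap (0.69 ± 0.12, adjusted p = 0.00411). Dnajb1, an HSP40 that works with HSP70, was at 10.49, 10.72 and 11.03 in MM and 9.90, 10.16 and 10.51 in MS (0.59 ± 0.11, adjusted p = 0.00812). The lowest MM array sat just below the highest MS array. Hspb1, the small heat shock protein HSP27, was at 7.27, 8.28 and 8.76 in MM, against 6.76, 7.11 and 7.70 in MS (0.89 ± 0.22, 1.85-fold, adjusted p = 0.0395). Its MM values were split, with 4 of 7 above every MS array, and leaving out any of 9 arrays ended the call (adjusted p up to 0.117).

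Heat shock factor HSF1 binds repeats of the letters GAA in alternating orientation. The core GAANNTTC, its own reverse complement, was found in 8.34% of all promoters, 5.55% of the tested genes' promoters and 4 (6.56%) of the 61 genes higher in MM. These 4 were Bag3, Dnajb1, Hspb1 and Nr4a2. The promoters of the 3 chaperone genes that rose are shown with the core in capitals, at chr19:41431092-41431391 on the minus strand, chr1:192533210-192533509 on the plus strand and chr12:26432252-26432551 on the minus strand (RefSeq, GRCr8).
Dnajb1: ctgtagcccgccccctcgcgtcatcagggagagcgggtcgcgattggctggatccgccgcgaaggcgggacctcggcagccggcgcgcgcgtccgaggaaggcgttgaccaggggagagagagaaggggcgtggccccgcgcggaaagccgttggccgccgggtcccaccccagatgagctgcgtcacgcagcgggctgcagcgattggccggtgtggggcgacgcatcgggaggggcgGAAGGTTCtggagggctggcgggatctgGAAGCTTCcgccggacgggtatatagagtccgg
Bag3: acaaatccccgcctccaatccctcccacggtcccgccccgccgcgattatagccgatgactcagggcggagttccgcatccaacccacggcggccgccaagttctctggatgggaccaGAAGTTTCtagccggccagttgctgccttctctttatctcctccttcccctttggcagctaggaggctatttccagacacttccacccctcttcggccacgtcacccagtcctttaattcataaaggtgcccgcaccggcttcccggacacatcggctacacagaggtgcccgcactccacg
Hspb1: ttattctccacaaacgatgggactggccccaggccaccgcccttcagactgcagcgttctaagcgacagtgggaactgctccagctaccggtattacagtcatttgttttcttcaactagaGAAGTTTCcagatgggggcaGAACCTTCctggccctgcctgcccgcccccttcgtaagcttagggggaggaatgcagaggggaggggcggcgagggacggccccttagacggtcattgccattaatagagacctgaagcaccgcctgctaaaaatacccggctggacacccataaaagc
Dnajb1 and Hspb1 hold 2 cores each and Bag3 holds 1. As with the cyclic AMP element, this describes letters and not binding.

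Stress responses of the endoplasmic reticulum gave smaller differences. Of 25 tested genes 2 rose and none fell, 23 had a positive difference, and the median was 0.19. Over all 8894 genes, 0.787% rose, 0.416% fell and 4605 had a positive difference. Cebpb, a bZIP factor of the stress and acute phase responses, differed by 0.48 ± 0.11 (adjusted p = 0.0211) and Pdia4, a protein disulfide isomerase, by 0.29 ± 0.07 without overlap (adjusted p = 0.0274). Leaving out 1 array ended the call of Cebpb for 3 arrays and of Pdia4 for 5. The luminal chaperone genes Hspa5 (0.34 ± 0.11, adjusted p = 0.143), Manf (0.36 ± 0.11, adjusted p = 0.101) and Canx (0.35 ± 0.10, adjusted p = 0.101) did not pass. None of 15 antioxidant genes passed, and Hmox1, the heme oxygenase, had a difference of 0.31 ± 0.10 (adjusted p = 0.141).

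Rbm3, the cold-inducible RNA-binding protein, moved the other way. It was at 8.16, 8.41 and 8.60 in MM arrays, against 8.73, 8.79 and 9.06 in MS arrays, so that no MM array reached the MS range. It fell by 0.47 on the log2 scale (SE 0.11, adjusted p = 0.021), a call that was lost without MM replicate 1, 2 or 5 or MS replicate 4 (adjusted p up to 0.0621).

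**Figure D3:**
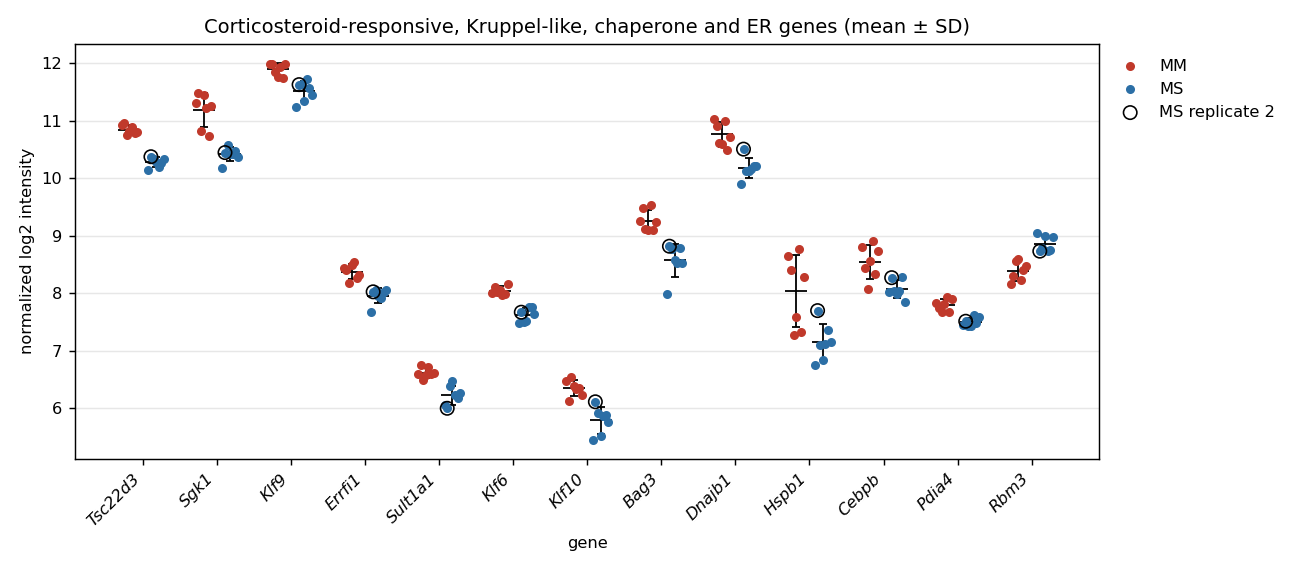
Normalized log2 values of glucocorticoid-responsive, Kruppel-like, chaperone, endoplasmic reticulum and cold-inducible genes along the x axis, 1 point an array and lines at the group mean ± SD (n = 7), with MM left of MS and MS replicate 2 ringed. Tsc22d3, Sgk1 and Bag3 were higher in all MM arrays than in any MS array, and Rbm3 was lower in all of them.

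The neuropeptide genes that the study followed after a single METH dose did not pass in this contrast. Crh, corticotropin-releasing hormone, was at 6.10, 6.32 and 6.75 in MM, against 5.37, 5.90 and 6.20 in MS, and 4 of 7 MM arrays lay above every MS array. Its difference was 0.58 ± 0.15 (adjusted p = 0.0562, two-sided exact permutation p = 0.00233 unadjusted). Avp, arginine vasopressin, spread widely, at 6.20, 6.86 and 7.58 in MM and 5.68, 6.23 and 7.46 in MS (0.48 ± 0.35, adjusted p = 0.612, exact permutation p = 0.163). Cartpt, the CART peptide precursor, was at 9.58, 9.96 and 10.55 in MM arrays, against 9.75, 10.25 and 10.63 in MS arrays (-0.25 ± 0.14, adjusted p = 0.467, exact permutation p = 0.164). Avpr1a, a vasopressin receptor, was detected on 4 of 7 arrays in each group and differed by 0.10 ± 0.09 (adjusted p = 0.683). No member of the CRH and vasopressin system (9 genes, median 0.10) passed, nor any of 20 striatal neuropeptide precursors (median 0.04), 14 neuropeptide receptors (median 0.10) or 9 monoamine synthesis and transport genes (median -0.01). Over all 8894 genes, 0.787% rose and 0.416% fell, so the lack of a call in lists of this size says little about them. Cck, the cholecystokinin precursor, differed by 0.75 ± 0.32 (adjusted p = 0.304) and Pdyn, the dynorphin precursor, by -0.20 ± 0.11 (adjusted p = 0.449).

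The largest difference belonged to a gene of the choroid plexus. Ttr, transthyretin, the thyroid hormone carrier that this epithelium secretes, had values of 8.63, 13.05, 8.65, 10.80, 11.90, 8.64 and 10.41 in MM replicates 1 to 7, against 4.63 to 5.04 in MS arrays, of which 4 of 7 detected it. Every MM array was far above the MS range, and the MM arrays differed widely among themselves. Their deposited intensities were 391.3, 9514, 353.8, 2056.8, 3722.7, 371.1 and 1080.5. The difference was 5.43 ± 0.54 (adjusted p = 1.17e-06). Since MS arrays were at or near background, its size is not exact. It was 5.26 with no background correction and 6.92 at the most over the alternatives. With MM replicates 2, 4, 5 and 7 left out, the arrays with the highest Ttr, it was 3.77 (adjusted p = 6.73e-05).

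Other choroid plexus genes followed the same order of arrays. Sostdc1, a BMP and WNT antagonist, was at 5.21, 6.38 and 9.22 in MM and not above background on any MS array, at least 3.39-fold higher in MM (adjusted p = 0.00809). This bound sets the MM mean against the dimmest signal detected on each MS array. F5, coagulation factor V, was likewise not above background on any MS array and at least 2.84-fold higher (adjusted p = 0.0211). Slco1a5, an organic anion transporter, differed by 1.29 ± 0.29 (adjusted p = 0.0213). Ttr, Sostdc1, F5 and Slco1a5 all had their highest values in MM replicate 2, then 5, then 4, then 7. Leaving out MM replicate 5 ended the calls of F5 (adjusted p = 0.0649) and Slco1a5 (adjusted p = 0.0666). Both calls also ended when the 14 MM and MS arrays were fitted alone, and on each slide alone. They ended too with an offset of 50, with no filter on dim probes, and with limma's variance trend and robust moderation. Slco1a5 was dim on MS arrays, and its difference ran from 0.43 to 1.96 over the alternatives.

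Of the 25 choroid plexus and ependymal markers listed, 22 were on the array, 14 passed the detection filter, 6 rose and none fell. Over all 8894 genes, 0.787% rose and 0.416% fell. Sostdc1 and F5 were detected on every MM array and no MS array, so they entered the test through the group where they were high. The 2 further members that rose, Igfbp2 and Igf2, are also made by meninges. Igfbp2, an IGF-binding protein, was at 8.41, 8.61 and 10.33 in MM arrays, against 7.19, 7.88 and 8.23 in MS arrays (1.15 ± 0.22, adjusted p = 0.00713). Igf2, insulin-like growth factor 2, was at 10.71, 10.94 and 11.96 in MM, against 9.62, 10.43 and 10.63 in MS (0.77 ± 0.17, adjusted p = 0.0183, and 0.0517 without MM replicate 5). Dcn, the matrix proteoglycan decorin, differed by 0.46 ± 0.11 (adjusted p = 0.0427), a call that ended when any of 11 arrays was left out (adjusted p up to 0.104). Of 17 meningeal and fibroblast markers, these 3 rose and none fell (median 0.10), and their summed level was 9659.2 to 14593 in MM arrays and 7063.1 to 9278.5 in MS arrays. Enpp2, Aqp1 and Col8a1 had differences of 0.48 ± 0.15, 0.69 ± 0.21 and 0.76 ± 0.22 and did not pass (adjusted p of 0.123, 0.103 and 0.0961).

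With MM replicates 2, 4, 5 and 7 left out, Sostdc1 differed by 0.70 (adjusted p = 0.000117) and F5 by 0.48 (adjusted p = 0.0216). Those arrays were picked for their levels of such genes, which narrows the MM spread, so these p-values are no separate support. On the MM arrays kept, Sostdc1 and F5 were near background. Slco1a5 (0.43, adjusted p = 0.144), Igfbp2 (0.72, adjusted p = 0.125) and Igf2 (0.47, adjusted p = 0.41) no longer passed.

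**Figure D4:**
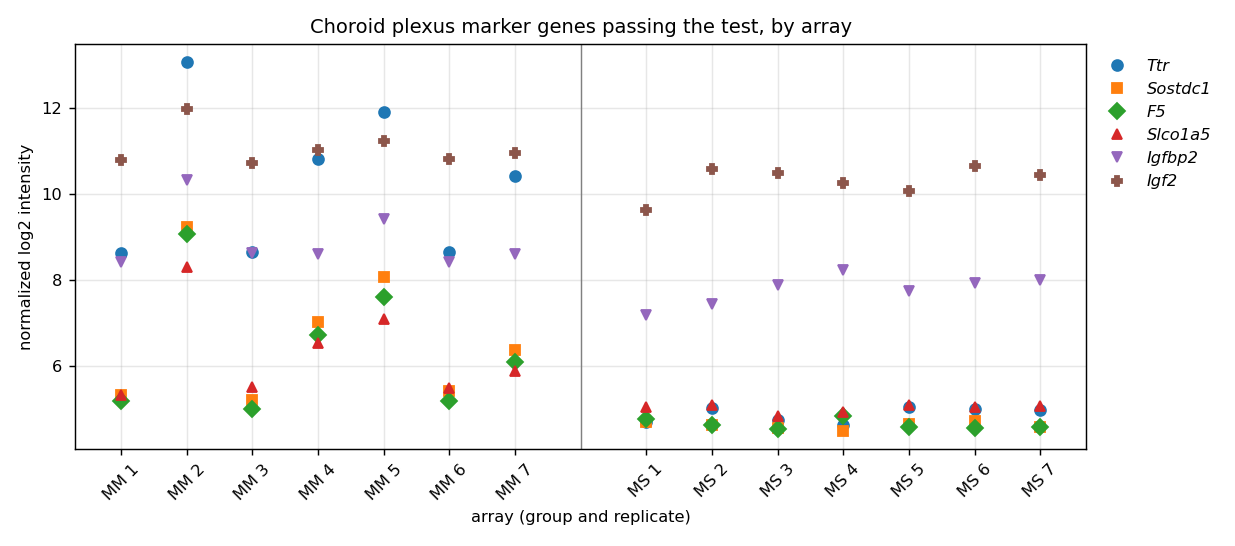
Normalized log2 values of the 6 choroid plexus markers that passed the test, on each MM array and then each MS array along the x axis, with 1 symbol a gene. Ttr lies between 8.63 and 13.05 in MM arrays and between 4.63 and 5.04 in MS arrays, and the highest MM points of Ttr, Sostdc1, F5 and Slco1a5 are MM replicates 2 and 5.

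The other genes were also measured without MM replicates 2, 4, 5 and 7, the arrays with the most choroid plexus RNA. With the 3 remaining MM arrays, 11 probes were higher and 6 lower. Fos then differed by 1.55 (adjusted p = 0.000792) and Dusp1 by 0.94 (adjusted p = 0.035). Nr4a3 was at 1.08 (adjusted p = 0.079), Tsc22d3 at 0.54 (adjusted p = 0.0683), Arc at 0.91 (adjusted p = 0.17) and Egr4 at 0.71 (adjusted p = 0.111). Bag3 was at 0.59 (adjusted p = 0.203) and Hspb1 at 0.60 (adjusted p = 0.506).

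Other increases named by their size were Mtmr1, Prok2 and Acer2. Prok2, the prokineticin 2 peptide, was at 5.45, 5.85 and 6.26 in MM, against 4.72, 4.87 and 5.38 in MS, where it was detected on 4 of 7 arrays (0.83 ± 0.14, adjusted p = 0.00221). Mtmr1, a phosphoinositide phosphatase of the myotubularin family, differed by 0.96 ± 0.18 (adjusted p = 0.00535) on one probe. Prok2 and this Mtmr1 probe were dim on MS arrays, so their sizes are not exact. Over the alternatives they ran from 0.46 to 1.58 for Prok2 and from 0.55 to 1.97 for Mtmr1. A second Mtmr1 probe, at background on nearly all arrays, gave -0.20 ± 0.08 (adjusted p = 0.279). Acer2, an alkaline ceramidase, was at 7.85, 8.25 and 8.34 in MM, against 6.63, 7.44 and 7.84 in MS (0.79 ± 0.16, adjusted p = 0.0105). Ecel1, an endopeptidase among the hypothalamic and preoptic markers, was the only one of 13 such markers to rise (0.51 ± 0.10, adjusted p = 0.00596). The median of that list was -0.11, and 0.787% of all 8894 genes rose.

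Decreases were smaller than the increases, and most lay outside the gene groups described above. Kntc1, a kinetochore protein, was at 6.02, 6.21 and 6.41 in MM, against 6.59, 6.80 and 6.95 in MS, with all MM arrays below all MS arrays (-0.57 ± 0.08, adjusted p = 0.000583). Rpusd3, a mitochondrial pseudouridine synthase family member, was at 5.52, 5.69 and 5.85 in MM arrays, against 6.01, 6.17 and 6.41 in MS arrays (-0.51 ± 0.08, adjusted p = 0.000693). Srrm2, a large serine and arginine repeat protein of the spliceosome, was at 10.39, 10.49 and 10.63 in MM, against 10.76, 10.96 and 11.01 in MS (-0.42 ± 0.07, adjusted p = 0.00171). None of these 3 genes showed any overlap between MM and MS arrays.

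Opalin, a membrane protein of myelinating oligodendrocytes, was at 6.86, 7.58 and 8.12 in MM, against 7.99, 8.17 and 8.40 in MS, with 6 of 7 MM arrays below every MS array (-0.76 ± 0.17, adjusted p = 0.0217). It was the only one of 18 oligodendrocyte markers to fall, where 0.416% of all 8894 genes fell, and the median of the markers was 0.001. Mag, a myelin glycoprotein, had a difference of -0.33 ± 0.11 (adjusted p = 0.175). The call of Opalin ended without MM replicate 1, 2 or 5 or MS replicate 4 (adjusted p up to 0.0685).

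Smoc2, a secreted calcium-binding matrix protein, was at 5.52, 5.80 and 6.20 in MM, against 6.26, 6.47 and 6.74 in MS (-0.65 ± 0.13, adjusted p = 0.00897). Lrrc34, a leucine-rich repeat protein, had an equally large decrease as Opalin (-0.76 ± 0.19, adjusted p = 0.0431). Tlr2, an innate immune receptor, Mus81, a DNA structure-specific endonuclease, and Pask, a PAS domain kinase, fell by 0.45, 0.44 and 0.40 on the log2 scale (adjusted p of 0.00411, 0.00411 and 0.00897). The growth factor Egf, the vasoconstrictor peptide Edn1, the splicing regulator Clasrp, the ubiquitin ligase Rnf31 and the replication protein A interactor Rpain fell by 0.39 to 0.49 (adjusted p of 0.0198 to 0.0496). Leaving out 1 array ended the calls of Lrrc34, Egf, Edn1, Clasrp and Rnf31 for 10 to 12 of the 14 arrays and that of Rpain for 3.

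No member passed in the lists of astrocyte, microglia, endothelial and mural, blood cell, septal, thalamic, GABA interneuron and cortical glutamatergic markers, respiratory chain subunits, cholesterol synthesis, synaptic vesicle release, RGS regulators and histone deacetylases. Their median differences ran between -0.09 and 0.14. With 0.787% of all 8894 genes higher and 0.416% lower, lists of this size can hold no call without being unlike other genes.

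Did the same challenge act differently without METH a month before? SM and SS share no arrays with MM and MS, so the difference between the contrasts, (MM minus MS) minus (SM minus SS), could be tested directly. This difference rests on 7 MM, 7 MS, 6 SM and 4 SS arrays. It passed for 996 probes (7.69%), of which 872 also differed between MS and SS, the groups given saline as the challenge. Of the 146 probes called in MM against MS, 49 were among them, 30 of the higher and 19 of the lower ones. These 146 were chosen by MM minus MS, a part of the difference tested, so the choice by itself raises that count. In SM against SS 94 of them had the same sign, and the matching share over all probes was not counted. By adjusted p under 0.05 in SM against SS (limma), 19 of the higher ones rose and 7 fell. Of the lower ones, 11 fell and 5 rose. Fos showed nearly equal changes, 1.74 in MM against MS and 1.70 in SM against SS, and the difference of 0.04 ± 0.24 had an adjusted p of 0.958. Nr4a3 changed by 1.33 after METH pretreatment and by 1.94 without it (difference -0.61 ± 0.29, adjusted p = 0.224), and Junb by 0.77 and 1.20 (difference -0.43 ± 0.22, adjusted p = 0.26).

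Other genes passed the test of the difference between the contrasts. Nr4a2 was 0.75 higher in MM than MS and -0.41 in SM against SS (difference 1.17, adjusted p = 0.00769). Crem had values of 0.73 and -0.11 (difference 0.84, adjusted p = 0.00616) on its brighter probe, and Sgk1 of 0.77 and -0.30 (difference 1.07, adjusted p = 0.00436). Klf9 and Klf10 rose by 0.38 and 0.56 in MM and fell by 0.41 and 0.56 in SM, with adjusted p of 9.62e-05 and 0.00034 for the differences. Acer2, Hspb1 and Gadd45g gave differences between the contrasts of 1.37, 1.25 and 0.75 (adjusted p of 0.00096, 0.0228 and 0.0192). Rbm3 fell by 0.47 in MM and rose by 0.41 in SM (difference -0.89, adjusted p = 0.00106).

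In these genes the 4 group means show where the contrasts part. Klf9 averaged 11.90 in MM, 11.52 in MS, 11.88 in SM and 12.30 in SS. Sgk1 averaged 11.18 in MM, 10.42 in MS, 10.93 in SM and 11.23 in SS. For both, SS had the highest mean and MS the lowest.

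In the probes with the smallest p for the difference, SS was the group that lay apart. Cartpt averaged 10.01 in MM, 10.26 in MS, 10.43 in SM and 7.88 in SS, and the difference between the contrasts was -2.81 (adjusted p = 6.2e-09). Ralyl, an RNA-binding protein, averaged 9.11 in MM, 9.19 in MS, 9.16 in SM and 7.71 in SS. Gfap, the astrocyte filament gene, averaged 10.75 in MM, 10.68 in MS, 10.31 in SM and 11.93 in SS. The same layout, with SS apart from the other 3 groups, held for the means of the other probes with the smallest p, the positive Nmu, Cdr2, Sema7a, Slc16a6 and Pmepa1 and the negative Ap1s2, Nell1, Hap1 and Pnck. Of these, only Cdr2 passed in MM against MS (0.33 ± 0.08, adjusted p = 0.0415), a call that ended with slide as a block (adjusted p = 0.0506) and when any of 12 arrays was left out (up to 0.104). Medium spiny neuron markers moved with the same group, and Drd1 and Drd2, the dopamine receptor genes, were at 0.00 and -0.10 in MM against MS and at -0.34 and -0.60 in SM against SS (adjusted p of 0.0046 and 5.63e-05 in SM against SS). The part of tissue composition in these differences was not tested.

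**Figure D5:**
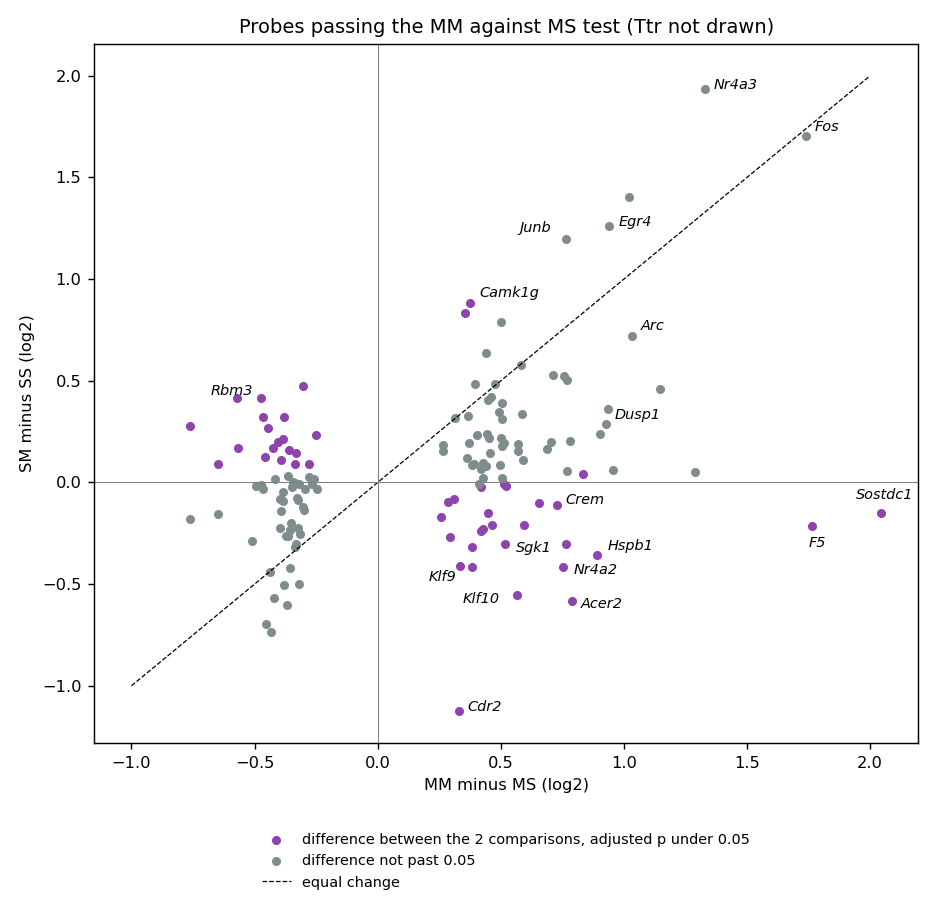
Each point is a probe called in MM against MS, except Ttr, which is not drawn. The MM minus MS log2 difference is on the x axis and the SM minus SS log2 difference on the y axis. The dashed line marks equal change. Purple points, among them Nr4a2, Klf9, Klf10, Sgk1 and Rbm3, passed the test of the difference between the contrasts, and Fos lies near the line.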

How the data were processed

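RNA was labelled with biotin and hybridised to rat Illumina BeadChips, 24 arrays on 2 slides (3 MM and 4 MS arrays on slide 1, 4 MM and 3 MS on slide 2). The deposited table holds intensities that the authors read with BeadStudio (version not given in the sources used here), background-subtracted on each array with values down to -21 and not scaled between arrays. Its detection p-value columns, deposited as scores of 1 minus p, stood in another row order than the intensities (Spearman's correlation -0.00699 to 0.000247), and were paired again by rank within each array. The authors' series matrix holds log2 values, which recomputation showed to be the intensity floored at 1 less each probe's median. It served as an alternative.

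Intensities were corrected with normexp (offset 16), quantile-normalized on the log2 scale (neqc) and fitted with limma 3.58.1 in R 4.3.3, with 1 mean per group over all 24 arrays. The code was tested on simulated data. The test covered 12956 of 22523 probes, those detected (p below 0.05) on 4 or more arrays. Platform annotation, with symbols updated through RefSeq, gave 1 gene symbol to 13793 probes and none to 8730, which are counted but not named. Genes were named for being among the 15 largest increases or decreases past an adjusted p of 0.05, the 6 smallest p each way for the difference between contrasts, the study's peptide genes or the 5 smallest p of each list, and any others were named after their values were seen. Gene lists are described by counts and medians, with 1 probe per gene, the brightest. The members and lists were chosen with earlier results of these data known. Alternatives covered background correction, scaling, filters, slides, array weights and left-out arrays. The number of arrays limits the precision.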

Additional observations from a re-analysis of the deposited data

Results flagged for a closer look

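Single arrays lay far from the rest of their group of 7 for these genes, on the normalized log2 scale, and chance marks about 1 in 20 such groups. MS replicate 2 was the highest MS array for Nr4a3 (7.80, nearest array 6.98), Dcn (7.70), Nmu (6.73), Gfap (11.23) and Dnmt3a (9.29, nearest array 8.14). MS replicate 1 was the lowest for Errfi1 (7.68), Bag3 (7.99), Hspa5 (11.43), Edn1 (5.60) and Dnmt1 (8.40), and the highest for Egf (7.16). MS replicate 3 was the lowest for Mtmr1 (4.53) and Mus81 (6.37), and MS replicate 5 the highest for Canx (8.53). MM replicate 2 was the highest MM array for Igf2 (11.96) and Ecel1 (7.05), and MM replicate 4 for Rpain (7.93).

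The difference between the contrasts, (MM minus MS) minus (SM minus SS), passed limma's test for the following genes of the report. The part of tissue composition in it was not tested. Positive differences were 7.17 for Ttr, 2.20 for Sostdc1, 1.98 for F5, 1.37 for Acer2, 1.25 for Hspb1, 1.17 for Nr4a2, 1.12 for Klf10 and 1.07 for Sgk1. Sostdc1 and F5 were not above background on any MS array and Ttr on 3 of 7, so these values rest on background levels and are not exact sizes. Ttr, Sostdc1 and F5 are choroid plexus genes, and their levels varied widely among MM arrays. The differences were 0.84 for Crem, 0.80 for Klf9, 0.80 for Nptx2, 0.79 for Prok2, 0.75 for Gadd45g, 0.60 for Hmox1, 0.60 for Fkbp5, 0.58 for Hspa5, 0.56 for Pdia4 and 0.44 for Errfi1. Hmox1, Hspa5 and Fkbp5 did not pass in MM against MS itself. Negative differences were -1.04 for Lrrc34, -0.89 for Rbm3, -0.74 for Smoc2, -0.74 for Kntc1, -0.71 for Edn1, -0.59 for Srrm2 and -0.50 for Rpain. Genes whose SS mean lay apart from the other groups gave 2.42 for Nmu, 1.95 for Sema7a, 1.73 for Slc16a6, 1.70 for Gfap, 1.45 for Cdr2, 1.41 for Pmepa1, -1.32 for Ap1s2, -1.54 for Ralyl, -1.57 for Nell1, -1.62 for Hap1, -1.86 for Pnck and -2.81 for Cartpt. Striatal markers and Cck gave 0.35 for Drd1, 0.50 for Drd2, 0.58 for Tac1, 0.49 for Ppp1r1b and 1.67 for Cck, and the choroid plexus marker Enpp2 gave 0.86.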

How the results depend on the processing

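Against 85 higher and 61 lower probes, median scaling called 39 higher and 13 lower, so that 75% of the calls were increases in place of 58.2%. The authors' series matrix gave 7 and 1 (87.5% increases). Slide 1 alone gave 0 and 0, slide 2 alone 20 and 13, the 14 MM and MS arrays fitted alone 155 and 126, and array weights 305 and 298. Alternatives chosen after seeing the data gave 11 and 6 without MM replicates 2, 4, 5 and 7, and 189 and 162 without the 3 arrays of weight under 0.5. Leaving out each array in turn gave 47 to 89 higher and 26 to 80 lower.

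By the 1.8-fold threshold, 16 higher and 5 lower probes became 8 and 0 with an offset of 50, 40 and 23 with the series matrix, and 9 and 11 without MM replicates 2, 4, 5 and 7. The lower count was 3 with no background correction, 2 on slide 1 alone and 1 with 1 probe per gene, and leaving out each array gave 14 to 20 higher and 3 to 6 lower. For the difference between the contrasts, 996 probes became 537 with median scaling, 159 with the series matrix, 19 on slide 1 alone, 1585 with array weights, 566 without MM replicates 2, 4, 5 and 7 and 2043 without the 3 low-weight arrays, and 861 to 1075 on leaving out each array. The fit of MM and MS alone holds no such difference. The cause was not tested, except that single slides and left-out arrays hold fewer samples.

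All 54 called genes that are named kept their direction under all 16 alternatives and 14 single leave-outs, which reuse the same arrays. None kept its call under all alternatives. Fos, Ttr and Sostdc1 lost theirs only on slide 1 alone. Leaving out 1 array ended no call of 32 of these genes. Crh, not called, passed under some alternatives. No paired analysis was possible because the labels give the groups no shared replicate numbers.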
